A study of Mus musculus with 2 samples.

Results

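The HSP70 family comprises ATP-driven chaperones that bind short hydrophobic stretches of unfolded proteins, hold them and release them for folding. J-domain proteins deliver clients and stimulate ATP hydrolysis, and nucleotide exchange factors, some of which are themselves HSP70 relatives, restart the cycle. In most tissues a constitutive member, Hspa8, is abundant at all times, while the stress-inducible pair Hspa1a and Hspa1b is kept low until heat shock factor 1 activates it through heat shock elements in the promoters. The 10 genes described here are the rows of the deposited tables whose Ensembl identifiers map to Hspa1a, Hspa1b, Hspa2, Hspa4, Hspa4l, Hspa8, Hspa9, Hspa12a, Hspa12b and Hspa13, out of 55573 listed genes. All 10 had at least 10 reads, the minimum used for counts over all genes, which 14829 genes passed. The list was selected on the reads and FPKM values of these same libraries, with the differences between them already known, so that the levels and differences are a description and support no test.

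RNA-seq was performed on mesenteric arteries, the resistance arteries that supply the intestine, of wild type C57BL/6 mice that were 10 weeks old. The control library came from arteries in 5 mM K+ and the depolarized library from arteries in 60 mM K+, each for 60 min and each from pooled tissue of 2 mice, and the comparison addresses which genes respond to membrane depolarization. Since each condition is a single library, the differences have no replicate check, and p-values are not given. The supplementary methods describe control tissue as the distal part of the arterial bed, harvested after incubation in a dish without perfusion. By that account the rest was then attached to a pump and perfused with 60 mM K+. K+, segment, perfusion, handling and time in solution therefore cannot be told apart. In bulk tissue, fewer cells of a type and less RNA per cell cannot be told apart either. Gene counts summed to 10480918 reads in the control and 11289598 reads in the depolarized library. The summed FPKM of 6 smooth muscle markers was 17473 in 5 mM K+ and 17004 in 60 mM K+, where FPKM denotes fragments per kilobase of gene and per 1000000 reads. Markers of other cells were lower: 1476 and 1751 for 8 endothelial genes, 2867 and 2310 for 5 fibroblast genes, 68.4 and 44.3 for 5 adipocyte genes, 104 and 78.4 for 5 Schwann cell genes, 18.8 and 10.7 for 5 macrophage genes, and 122 and 70.3 for 3 red blood cell genes. The 6 pancreatic acinar genes summed to 10.9 and 41.1, with 131 and 444 reads. For 4 lymphocyte genes the sums were 0.527 and 0.337, and for 3 mesothelial genes 0 and 0.18, with Msln and Upk3b at 0 reads in both. The part of these shifts in the values below was not tested.

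The promoters of Hspa1a and Hspa1b are shown because these genes differed most between the libraries and because their upstream sequences are nearly the same. The 250 bases before the annotated start are given 5′ to 3′ on the strand of the gene, from RefSeq on GRCm38.p6, at chr17:34972157-34972406 for Hspa1a and chr17:34959239-34959488 for Hspa1b, both on the minus strand. Capitals mark a heat shock element of 2 inverted units, GAANNTTC.
Hspa1a: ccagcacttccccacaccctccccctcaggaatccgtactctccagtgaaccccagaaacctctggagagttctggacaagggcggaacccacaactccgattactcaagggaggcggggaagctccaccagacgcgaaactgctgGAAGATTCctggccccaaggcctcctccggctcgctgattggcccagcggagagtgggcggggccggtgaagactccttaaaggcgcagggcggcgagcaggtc
Hspa1b: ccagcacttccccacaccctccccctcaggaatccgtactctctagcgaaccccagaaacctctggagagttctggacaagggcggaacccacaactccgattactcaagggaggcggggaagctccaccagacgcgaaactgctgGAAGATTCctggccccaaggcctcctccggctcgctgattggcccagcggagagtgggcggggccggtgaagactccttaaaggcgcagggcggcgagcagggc
The sequences were identical at 247 of 250 positions (98.8%). Counted from 1 at the 5′ end, with the base of Hspa1a first, they differed by C44T, T47C and T249G, and the element in capitals, 104 to 97 bases before the start, was the same in both. RefSeq entries were found for 7 of 10 members, without Hspa8, Hspa9 and Hspa13. Of these 7, Hspa1a and Hspa1b held GAANNTTC, which occurs in 7.73% of 27025 genes with promoters of the same length. Both strands were searched, and a gene counts if any of its promoters matches. The element of 3 units is GAANNTTC followed by any 2 bases and GAA. It was in 0 of the 7 and in 0.514% of all genes. TTCNNGAA, the same units in the other order, was in 0 of the 7 and in 8.11% of all genes. CREB factors, studied in this tissue, bind the full cAMP response element TGACGTCA. That element was in 0 of the 7 and in 1.77% of all genes. TATAAA was in 0 of the 7 and in 14.3% of all genes. These are exact matches of letters in this window alone. Heat shock elements with mismatched units or with gaps between units were not searched, so that longer elements of that kind may be present. Shorter or variant forms of the cAMP response element were not searched either, and they may also be present.

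Hspa1a and Hspa1b, the stress-inducible cytosolic chaperones, were far higher in depolarized than in control arteries, whereas the other 8 members differed by less than 2-fold. Hspa1b lies on chromosome 17 from 35093381 to 35096183 (mm9, GENCODE vM1), and Hspa1a on the same chromosome from 35106144 to 35109069, with 9960 bases between them. Hspa1a had 1269 reads in the control and 9349 in the depolarized library, which is 113 and 890.2 CPM. CPM denotes reads per 1000000 after scaling each library with the trimmed mean of M-values (TMM) of edgeR. The log2(fold-change) of 60 mM K+ over 5 mM K+ was 2.98, with a 95% exact (Clopper-Pearson) interval of 2.90 to 3.07, a 7.90-fold difference. Intervals cover counting error only. Hspa1b had 1303 and 14454 reads, or 116 and 1376 CPM, a log2(fold-change) of 3.57 (interval 3.49 to 3.66) and an 11.9-fold difference. By CPM, which is not corrected for gene length, the pair was below Hspa2 at 129 and Hspa4 at 157 in the control library, and above every other member except Hspa8 in the depolarized library. By read count, Hspa1b ranked 1483 among all genes in 5 mM K+ and 84 in 60 mM K+, and Hspa1a ranked 1541 and 149. Among the 4096 genes whose reads in the 2 libraries summed to 1000 or more, Hspa1b had the log2(fold-change) of rank 2 and Hspa1a that of rank 5. The plot of TMM-scaled CPM by gene shows the gap between this pair and the rest.

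**Figure D1:**
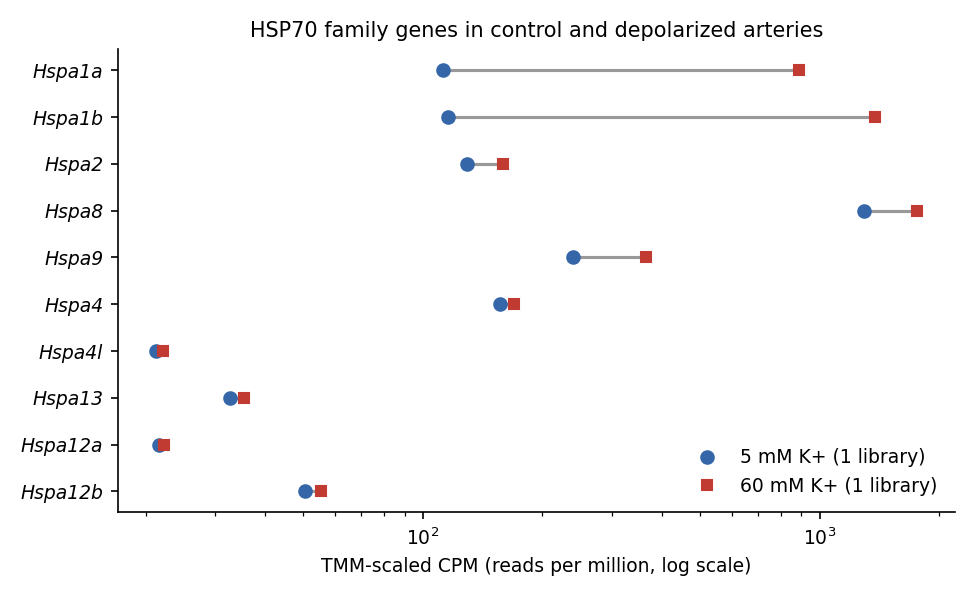
TMM-scaled CPM of the 10 HSP70 family genes on a log axis, with the 5 mM K+ library as circles and the 60 mM K+ library as squares, 1 library each. Hspa1a and Hspa1b moved from 113 and 116 CPM to 890.2 and 1376 CPM, and the longest other line, that of Hspa9, ran from 240 to 364 CPM.

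A log2(fold-change) above 1, the fold threshold of the study, was found for 2 of 10 members, and a log2(fold-change) below -1 for 0 of 10. Over all genes with at least 10 reads, 5.54% were above 1 and 5.86% below -1. Among genes with at least 200 reads, which include all 10 members, these shares were 2.98% and 0.312%. With the nearest end of the counting interval required to pass 1, the counts were again 2 of 10 higher and 0 of 10 lower, against 1.77% and 0.492% of all genes. A random-sampling test of DEGSeq, rebuilt here from its formula, compares these libraries and not the conditions. With q-value and fold thresholds it called Hspa1a and Hspa1b higher and 0 of 10 members lower. Among all genes with a read, the rebuilt test called 452 (2.11%) higher and 235 (1.1%) lower. The published list of called genes is far shorter in both directions, so that these shares describe the rebuilt test alone. A counting interval clear of 0 on the higher side was found for 6 of 10 members and 25.0% of all genes, and on the lower side for 0 of 10 members and 20.3% of all genes. The median log2(fold-change) of the members was 0.22, and that of all genes with at least 10 reads was -0.0047. With library totals in place of TMM every value and interval end is lower by 0.21, and the medians were 0.011 and -0.21. The lower interval ends of Hspa2 at 0.202 and Hspa4 at 0.018 are smaller than this shift of 0.209. These intervals are therefore clear of 0 with TMM but not with library totals. Under total counts 5 members were higher in 60 mM K+ and 5 were lower, in place of 10 higher, so that the direction of Hspa4, Hspa4l, Hspa12a, Hspa12b and Hspa13 rests on the scaling.

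**Figure D2:**
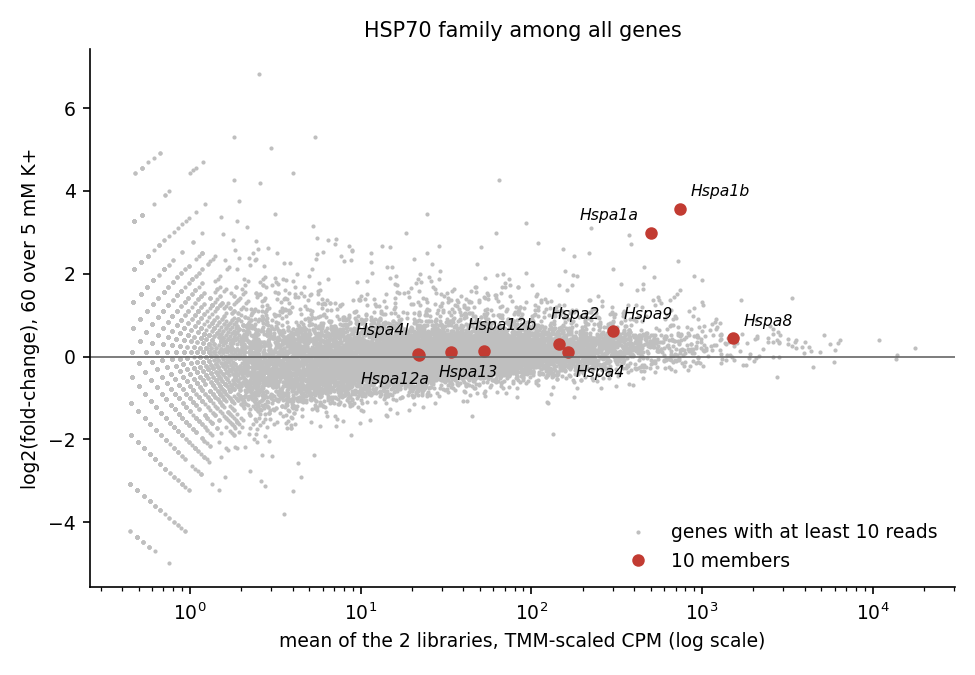
Each gray point is a gene with at least 10 reads, with its mean TMM-scaled CPM on a log axis and its log2(fold-change) of 60 over 5 mM K+, and red circles are the 10 members. Hspa1b at 3.57 and Hspa1a at 2.98 lie at the upper edge of the genes of similar level, and the other 8 members lie between 0.04 and 0.61.

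The pair is close to a duplication, which limits how far its reads can be told apart. In the mm9 sequence the coding regions, with the stop codon, are 1926 bases in Hspa1a and 1929 bases in Hspa1b, and 99.4% of aligned positions were identical. The 5′ UTRs of 199 and 231 bases had 85.3% identity, with 32 positions in gaps, and the 3′ UTRs of 801 and 643 bases had 47.8%. Sequence that separates the genes therefore lies mostly in the 3′ UTRs. Of exonic windows of 100 bases, 49.3% in Hspa1a and 49.9% in Hspa1b had an exact copy elsewhere in mm9, and with 50 bases these were 61.0% and 62.3%. Each copied window of Hspa1b had a copy in Hspa1a. The sources used here give neither the read length nor the treatment of reads with several matches.

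The reads listed for the 2 genes did not differ between the libraries in equal proportion. Hspa1b took 50.7% of the reads of the pair in the control library (95% Clopper-Pearson interval 48.7 to 52.6) and 60.7% in the depolarized library (60.1 to 61.3). Reads of Hspa1b per read of Hspa1a were 1.03 (0.95 to 1.11) in 5 mM K+ and 1.55 (1.51 to 1.59) in 60 mM K+. These ratios do not depend on library scaling, and their intervals did not overlap. As an annotated gene on the opposite strand, Gm20481, shares 552 exonic bases with Hspa1a and is listed with 0 reads in both libraries, and use of strand in the counting is not stated, the level of Hspa1a relative to Hspa1b is uncertain. The reads of both genes added together were 2572 in 5 mM K+ and 23803 in 60 mM K+, a log2(fold-change) of 3.31 (interval 3.25 to 3.37). This sum does not depend on how counted reads were split between the 2 genes. Reads with several matches may be missing from it, as their treatment is not given.

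For the constitutive cytosolic members the differences were small. Hspa8 (chromosome 9, 40609067 to 40613283), the main housekeeping chaperone that also uncoats clathrin vesicles, had 14553 reads in the control and 18461 in the depolarized library, or 1292 and 1758 CPM. Its log2(fold-change) was 0.44 (interval 0.41 to 0.48), and 0.24 with total counts. Hspa8 was already among the most abundant genes, with rank 65 by reads in the control and 54 in the depolarized library. Of its exonic windows of 100 bases, 24.5% had an exact copy elsewhere in mm9, and 37.3% of those of 50 bases did, so that its level is uncertain. The small nucleolar RNA genes Snord14c, Snord14d and Snord14e also lie within Hspa8 on the same strand, and Snord14e is listed with 0 reads in both libraries. Hspa2 (chromosome 12, 77505163 to 77507921), a close relative best known for its role in male germ cells, had 1457 and 1677 reads, a log2(fold-change) of 0.30 (interval 0.20 to 0.41) that was 0.10 with total counts. With TMM both intervals lay above 0 and below 1, and with total counts that of Hspa2 included 0. For comparison, the 10th and 90th percentiles of log2(fold-change) over 9291 genes with at least 200 reads were -0.39 and 0.53, and Hspa8 and Hspa2 lay between them.

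Hspa9 (chromosome 18, 35097068 to 35114011), the mitochondrial HSP70 that pulls proteins through the inner membrane, was the next highest member after the inducible pair by log2(fold-change). Its reads numbered 2699 in the control and 3827 in the depolarized library, which is 240 and 364 CPM. The log2(fold-change) of 0.61 (interval 0.53 to 0.68) was higher than that of 92.1% of genes with at least 200 reads. With total counts it was 0.40. Of its exonic windows, 0% of those of 100 bases and 5.95% of those of 50 bases had an exact copy elsewhere. The annotated SNORD63 genes within Hspa9 share 0 bases with its exons, as do Gm11037 within Hspa12b and AC129776.1 within Hspa13.

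The HSP110-type members are larger relatives that act as nucleotide exchange factors for HSP70. Hspa4 (chromosome 11, 53073316 to 53113959) had 1768 reads in 5 mM K+ and 1783 in 60 mM K+, a log2(fold-change) of 0.11 (interval 0.02 to 0.21). Hspa4l (chromosome 3, 40548417 to 40600025) had 239 and 232 reads, with 0.06 (interval -0.21 to 0.33). Hspa4l had the fewest reads of the 10 members in 60 mM K+, and its interval is wide enough to hold values on either side of 0. With total counts both were below 0, at -0.10 for Hspa4 and -0.15 for Hspa4l.

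The remaining members, Hspa13 and the divergent pair Hspa12a and Hspa12b, showed no difference that was detectable at this depth. Hspa13 (chromosome 16, 75755435 to 75767066), a microsome-associated member, had 367 reads in 5 mM K+ and 371 in 60 mM K+ (log2(fold-change) 0.12, interval -0.10 to 0.33). Hspa12a (chromosome 19, 58870241 to 58935474), a distant relative expressed in brain, had 244 and 234 reads (0.04, interval -0.22 to 0.31). Hspa12b (chromosome 2, 130953016 to 130972057), known mainly from endothelial cells, had 567 and 580 reads (0.13, interval -0.04 to 0.30). The intervals of these 3 genes included 0. Of 8 endothelial markers, 7 were higher in 60 mM K+ and 1 was lower at -1.10, with a median log2(fold-change) of 0.42. Hspa12b was at -0.07 with total counts, and the part of these markers in its value was not tested.

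**Figure D3:**
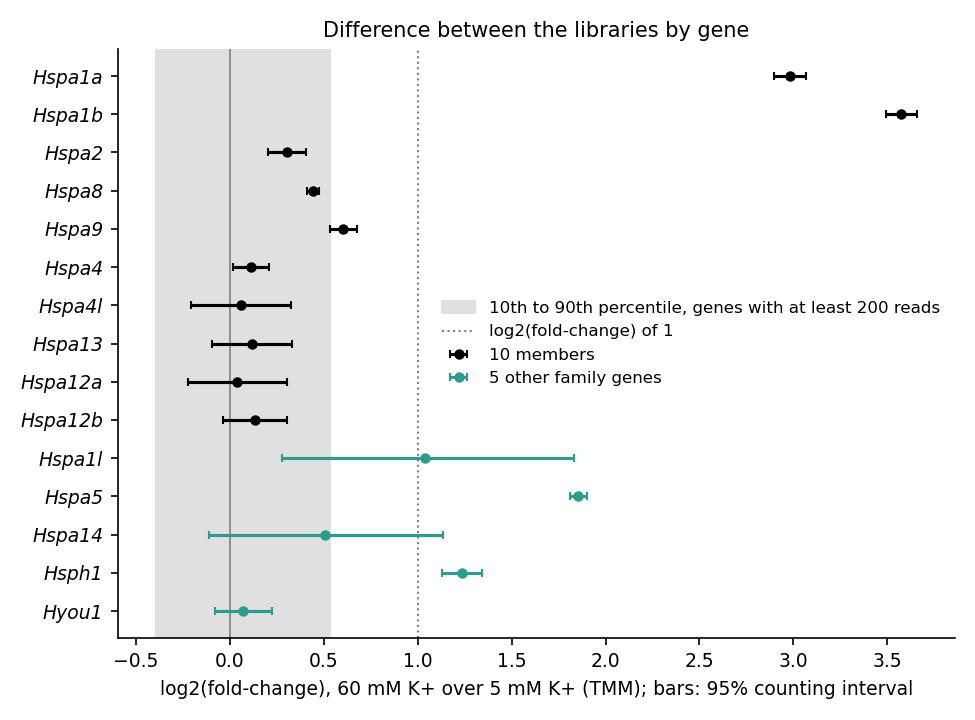
Points are log2(fold-change) of 60 over 5 mM K+ with TMM scaling, bars are 95% counting intervals, black marks the 10 members and green marks 5 other genes of the family. The gray band runs from -0.39 to 0.53, the 10th to 90th percentile of genes with at least 200 reads, and Hspa1a, Hspa1b and Hspa9 are the members with points outside it.

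Compared per length, Hspa8 had the highest level of the 10 members in control arteries and held a smaller share beside the inducible pair in depolarized arteries. By deposited FPKM, which is scaled to total counts, Hspa8 was at 1129 in 5 mM K+ and 1329 in 60 mM K+. The control order continued with Hspa9 at 224, Hspa4 at 60.8, Hspa2 at 55.1, Hspa1b at 44.4, Hspa1a at 40.8, Hspa12b at 26.8, Hspa12a at 17.3, Hspa13 at 12.4 and Hspa4l at 9.75 FPKM. In 60 mM K+, Hspa1b at 457 and Hspa1a at 279 stood beside Hspa9 at 295, and the other 6 genes were between 8.78 and 58.8 FPKM. Hspa1a and Hspa1b together went from 5.26% of the summed FPKM of the 10 members to 29.0%, while Hspa8 went from 69.7% to 52.4%. With 1 library per condition, no spread between samples is available to order close neighbors such as Hspa4 and Hspa2.

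These levels depend on the gene length used. The deposited FPKM values imply a length of 1230 bases for Hspa8 and 1151 bases for Hspa9, compared with 2394 and 3049 bases for their longest protein-coding transcripts in GENCODE vM1. For Hspa1b both lengths are 2803 bases, and for Hspa1a they are 2967 and 2926. With the longest transcript as length, a setting chosen after the values were seen, the share of Hspa1a and Hspa1b together was 9.82% in 5 mM K+ and 44.7% in 60 mM K+. With all merged exons it was 14.3% and 55.5%, and Hspa1b at 457 then exceeded Hspa8 at 393 FPKM recomputed with that length in the depolarized library. The pair took a larger share in 60 mM K+ with each length, and its rank against Hspa8 changed with that choice. Exact copies elsewhere in mm9 also differ by gene. Of exonic windows of 100 bases, 49.3% in Hspa1a, 49.9% in Hspa1b, 24.5% in Hspa8 and 0% in Hspa9 had one. The part of these copies in the shares and ranks was not tested.

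**Figure D4:**
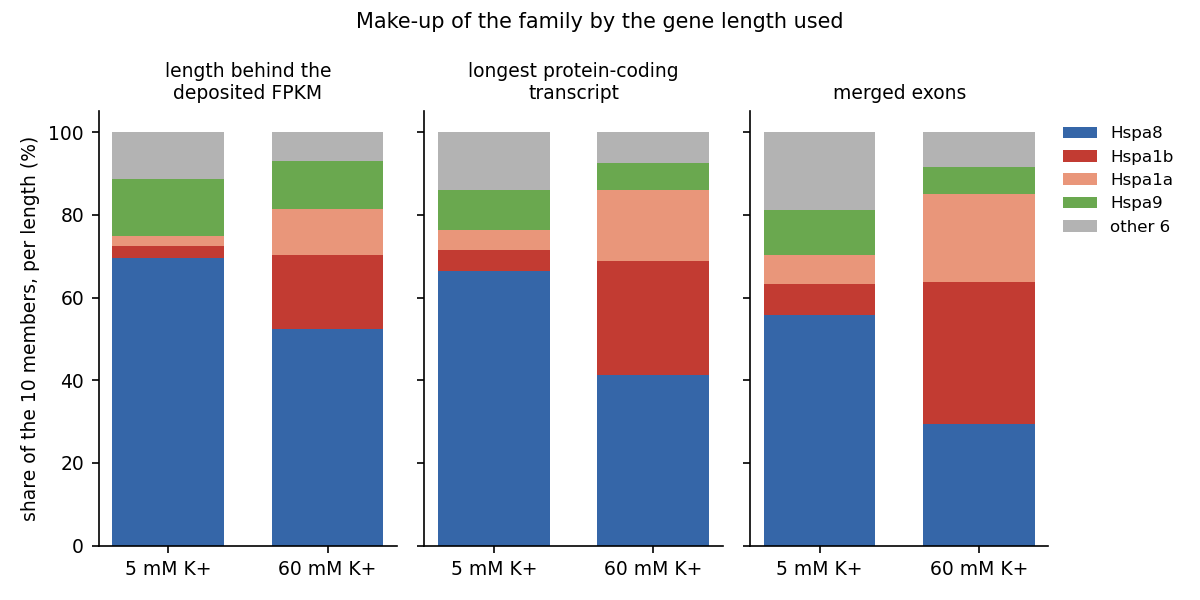
Stacked bars give each gene's share, in percent, of the summed per-length level of the 10 members in each library, from 0 to 100, with the gene length taken from the deposited FPKM, the longest protein-coding transcript or the merged exons. The part of Hspa1a and Hspa1b grew from 5.26% to 29.0% with the first length and from 14.3% to 55.5% with the last.

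Over the 10 members, TMM-scaled reads summed to 2172 CPM in the control and 4853 CPM in the depolarized library, a 2.23-fold difference, and 76.0% of the added CPM lay on Hspa1a and Hspa1b. The other 8 members summed to 1943 CPM in 5 mM K+ and 2587 CPM in 60 mM K+, a 1.33-fold difference. As a share of all counted reads, the 10 genes took 0.233% of the control library and 0.451% of the depolarized library.

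Genes of the HSP70 and HSP110 superfamily outside the 10 members also differed. Hspa5, the chaperone of the endoplasmic reticulum known as BiP, had 4852 reads in 5 mM K+ and 16362 in 60 mM K+, a log2(fold-change) of 1.86 (interval 1.81 to 1.90). Hsph1, an HSP110-type exchange factor of the cytosol, had 1041 and 2285 reads, with 1.24 (1.13 to 1.34) on the same scale. Unlike Hsph1, the members Hspa4 and Hspa4l of the same type stayed below 1, with intervals that did not reach that of Hsph1. Hspa1l, whose annotated start is 578 bases from that of Hspa1a on the other strand, had 23 and 44 reads, with 1.04 (0.28 to 1.83), and was below 1 with total counts at 0.83. Hyou1, an exchange factor of the endoplasmic reticulum, was at 0.07 (-0.08 to 0.22), and Hspa14, which associates with the ribosome, at 0.51 (-0.11 to 1.14) on 40 and 53 reads. Thus 3 of these 5 genes were above 1 with TMM, against 5.54% of all genes with at least 10 reads, and without Hspa1l, which rests on few reads and on the scaling, 2 were.

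Of 69 partner genes in 6 lists, 68 had at least 10 reads, 4 were above a log2(fold-change) of 1 and 1 was below -1. Against 5.54% and 5.86% of all genes with at least 10 reads, the share above 1 was near that of all genes. At this minimum the count is no result about the partners, and the genes named here are single values. Among genes with at least 200 reads 2.98% were above 1 and 0.312% below -1. The 4 partners above 1 had at least 200 reads, and the 1 below -1 did not. The partners at that depth were not counted, so that no share of them stands beside these. Among 25 J-domain proteins, Dnajb1, the main cytosolic partner of the inducible HSP70s, had 684 and 2686 reads and the highest log2(fold-change) of the list, 2.07 (interval 1.95 to 2.20), and the median of the list was 0.21. Of 12 exchange factors and adaptors (median 0.14), Bag3, which links HSP70 to small HSPs, had 2025 and 4313 reads and 1.19 (1.12 to 1.27), but 0.98 with total counts. Grpel2, a mitochondrial exchange factor that serves Hspa9, was lower, with 136 and 61 reads and -1.06 (-1.52 to -0.61). In the chaperonin list of 10 (median 0.30), the mitochondrial co-chaperonin Hspe1 had 452 and 1158 reads and 1.46 (1.30 to 1.62). In the small HSP list of 7, of which 6 had at least 10 reads (median 0.29), Hspb1 had 10710 and 25569 reads and 1.36 (1.32 to 1.39). Of 11 genes of the HSP90 system (median 0.28), 0 were beyond 1 in either direction. The same held for a list of 4 genes, Hsf1, Hsf2, Hsf4 and Hsbp1, with a median of 0.02. Of these, Hsbp1 encodes a binding protein of heat shock factor 1, not a factor itself. Hsf1 itself had 763 and 593 reads, a log2(fold-change) of -0.26 (-0.42 to -0.11).

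Across all genes with 1000 reads or more, the values nearest to that of Hspa1a at 2.98 were those of the chemokines Cxcl2 at 2.98 and Cxcl1 at 3.11 and of the adhesion molecule Icam1 at 2.94, and the counting intervals of all 3 overlapped that of Hspa1a. Nearest to Hspa1b at 3.57 were the hexokinase gene Hk2 at 3.23, Cxcl1 and Hspa1a. The interval of Hk2, 3.02 to 3.45, ended below that of Hspa1b. This likeness is over 2 libraries alone and describes the size of the difference.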

How the data were processed

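According to the methods, the authors aligned reads to mm9 with TopHat2. The submitters' processing notes name TopHat2 2.0.12, HTSeq 0.6.1, edgeR 3.0.8 and the builds mm8 and mm9. The deposited read counts are unnormalized, and the deposited FPKM values were scaled by gene length and total counts. The counting annotation is unknown here: 22972 of 55573 listed identifiers, with 0.908% of control and 0.852% of depolarized reads, are absent from GENCODE vM1, which gave symbols and mm9 positions. Promoters are from RefSeq on GRCm38.p6.

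TMM scaling (edgeR 4.0.16, R 4.3.3) gave effective library sizes of 11266853 and 10502077 reads. A count of 0 entered as 0.5 reads. Intervals are 95% Clopper-Pearson intervals of the depolarized library's share of a gene's reads. With 1 library per condition, edgeR's quasi-likelihood test could not be run. A DEGSeq random-sampling test was rebuilt from the formula, with thresholds of 0.005 for q and 1 for the absolute log2 value. Scripts were tested on simulated data. Sequences were aligned with Biopython 1.88.

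The members and gene lists were chosen with earlier results of these data known. Named genes are the 10 members, 5 other family genes, overlapping genes, up to 3 genes per partner list beyond a log2(fold-change) of 1, and the 3 genes nearest in log2(fold-change) to Hspa1a and to Hspa1b among genes with at least 1000 reads. Hsf1, Hsf2, Hsf4, Hsbp1 and marker genes at 0 reads were named after their values were seen. Alternatives were other scalings (total counts, upper quartile, or DESeq2 1.42.0 size factors), FPKM with pseudocounts of 0.1 and 1, minimum counts, call criteria, gene lengths and motifs.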

Additional observations from a re-analysis of the deposited data

How the results depend on the processing

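No paired analysis was possible because the conditions have 1 library each, so that none could be left out either. These settings show how far scaling, counting and gene length move the values, not how far animals differ. The numbers of members beyond a log2(fold-change) of 1, 2 higher and 0 lower, were the same in all 7 other settings tried. The median log2(fold-change) of the members, 0.22 with TMM, was 0.011 with total counts, and also 0.011 on the FPKM scale under each pseudocount, 0.1 or 1, since FPKM is scaled by total counts. Over 5 other settings for each member, 28 values stayed inside the counting interval and 22 did not, and 0 of the values beyond 1 changed sign. With total counts and both FPKM settings 5 members were below 0, and with upper-quartile scaling 1 was, Hspa12a.

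For all genes, 822 were above 1 and 869 below -1. With every gene that had a read these were 3081 and 2491, and with total counts 601 and 1285, so that 31.9% of these genes were higher, compared with 48.6% with TMM. The ratio of Hspa1b to Hspa1a in 60 mM K+ was 1.55 by reads and 1.64 by FPKM. The share of Hspa1a and Hspa1b in the FPKM of the 10 members, 5.26% in 5 mM K+ and 29.0% in 60 mM K+, was 4.20% and 19.9% among 15 family genes, 9.82% and 44.7% with the longest transcript as length, and 14.3% and 55.5% with merged exons. Gene lengths and TTCNNGAA were added after the values were seen. By exact match, 0 of the 7 genes with promoter entries held the heat shock element of 3 units and 2 held GAANNTTC.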
